A study of Mus musculus with 12 samples.

Results

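The 8 genes described here are a chosen list of feedback inhibitors and Etv targets of ERK signaling that carried a probe on the nCounter Mouse PanCancer Pathways panel. They were chosen by symbol and comprise the phosphatase genes *Dusp4*, *Dusp5* and *Dusp6*, the Sprouty genes *Spry1*, *Spry2* and *Spry4*, and the transcription factor genes *Etv1* and *Etv4*. All 8 were among the 770 genes of the panel. Levels were measured in 12 samples, each a single eye, lesion or tumor of an individual mouse. The 5 *RBS* lesions were eyes of Rax-creERT2::Ctnnb1(ex3)Fl/+SmoM2Fl/+ embryos, which had been exposed to tamoxifen at E8.5 and were collected at E18.5. In these embryos Cre is active in cells that express *Rax*, mostly retinal precursors, where loss of *Ctnnb1* exon 3 stabilizes beta-Catenin and SmoM2 switches on Shh signaling. The 4 control eyes came from E18.5 Ctnnb1(ex3)Fl/+SmoM2Fl/+ embryos, so they carried both floxed alleles without Cre. The labels used here give no tamoxifen exposure for these control embryos. The 3 Shh-MBs were hindbrain tumors of hGFAP-cre::SmoM2Fl/+ mice aged 14 days, a medulloblastoma model driven by SmoM2 alone. All 12 samples thus shared the SmoM2 floxed allele. Shh-MBs differed from both eye groups in tissue and age as well as genotype, and these cannot be told apart.

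ERK is the last kinase of a cascade that runs from receptor tyrosine kinases, such as the FGF receptors, through Ras, Raf and Mek. Active ERK raises transcription of its own inhibitors, so transcripts of the dual-specificity phosphatases and Sproutys are widely used as a readout of the pathway. The Etv factors of the PEA3 group are classical transcriptional targets of FGF signaling, which is needed for the formation of the lens and the neural retina.

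To show what lies in front of the genes that the results turn on, the 250 bases upstream of the annotated start are given for *Dusp6* and *Spry2*, which had the most similar profiles over the samples among the 8 genes, for *Dusp5*, which went its own way in Shh-MBs, and for *Spry1*, a Sprouty gene that did not follow *Spry2*. The sequences are from RefSeq (GRCm38.p6), which held entries for 5 of the 8 genes in the table used here, the other one being *Etv1*. *Dusp4*, *Spry4* and *Etv4* had no entry. They are written 5′ to 3′ in the direction of the gene, at chr10:99262981-99263230 (plus strand) for *Dusp6*, chr14:105896820-105897069 (minus strand) for *Spry2*, chr19:53528895-53529144 (plus strand) for *Dusp5* and chr3:37639697-37639946 (plus strand) for *Spry1*. Capitals mark matches on either strand to the core recognized by ETS factors (CGGAA), the core of a GLI site (TGGGTGG), a TCF/LEF core (CTTTGA) or the CArG box bound by serum response factor.
Dusp6: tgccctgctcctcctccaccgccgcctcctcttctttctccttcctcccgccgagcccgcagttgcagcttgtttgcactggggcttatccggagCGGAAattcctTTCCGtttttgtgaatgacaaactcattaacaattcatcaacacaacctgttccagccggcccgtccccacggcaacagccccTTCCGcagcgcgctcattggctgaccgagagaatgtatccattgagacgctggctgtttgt
Spry2: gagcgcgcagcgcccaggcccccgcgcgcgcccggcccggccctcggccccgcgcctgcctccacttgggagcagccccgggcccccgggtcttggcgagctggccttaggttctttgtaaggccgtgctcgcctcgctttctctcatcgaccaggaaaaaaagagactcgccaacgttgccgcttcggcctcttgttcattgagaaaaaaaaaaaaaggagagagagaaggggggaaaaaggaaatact
Dusp5: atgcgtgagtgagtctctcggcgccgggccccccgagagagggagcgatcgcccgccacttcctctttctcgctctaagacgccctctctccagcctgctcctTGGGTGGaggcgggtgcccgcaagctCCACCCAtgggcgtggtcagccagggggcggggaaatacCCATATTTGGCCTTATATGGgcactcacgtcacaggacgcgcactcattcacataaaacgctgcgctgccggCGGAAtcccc
Spry1: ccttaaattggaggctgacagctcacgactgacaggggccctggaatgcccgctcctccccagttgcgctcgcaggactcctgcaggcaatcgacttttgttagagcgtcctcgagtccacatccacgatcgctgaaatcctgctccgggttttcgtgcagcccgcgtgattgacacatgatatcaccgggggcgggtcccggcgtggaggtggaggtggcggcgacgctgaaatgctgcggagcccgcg

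The *Dusp6* window held 3 ETS cores, which lay 155, 144 and 61 bases upstream of the start, counted to the first base of the match, and no match to the other 3 motifs. The *Dusp5* window held 2 adjoining CArG boxes 82 and 72 bases upstream, 2 GLI cores 147 and 121 bases upstream and 1 ETS core 10 bases upstream. The windows of *Spry1* and *Spry2* held none of the 4 motifs, which says only that these letters are not in these windows. Of the 2 *Etv1* windows in the table, 1 held a GLI core 187 bases and a TCF/LEF core 172 bases upstream. Among 32817 windows of the same length, 25.2% held the ETS core, 1.47% the CArG box, 8.11% the GLI core and 13.8% the TCF/LEF core. None of the matches overlapped another. The motifs were picked after the sequences had been seen, and a match is a description and not a binding site.

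Values are the normalized signal on the linear scale, in which a background level has been taken off and each sample scaled by one factor. The signal corresponded to 335392 to 716684 counts above background per sample, with *RBS* lesions at 335392 to 637795, control eyes at 590200 to 716684 and Shh-MBs at 541092 to 707210. The value of the 8 genes that rested on the fewest counts, *Dusp5* in *RBS* 1, had 25 counts above background, and none of the 8 genes was at the lowest value of any sample. A few transcripts dominated each sample, as the 3 most abundant genes made up 26.9% to 29.7% of the lesions' signal, and 42.8% to 50.9% and 50.0% to 51.8% of that of control eyes and Shh-MBs. As a check of the labels, the signal of *Ctnnb1* in control eyes was 5688 ± 171 (SD, n = 4) and reached 7957 ± 395 (SD, n = 5) in lesions, and *Smo* signal was 157 ± 14.5 (SD, n = 4) and 177 ± 13.6 (SD, n = 5). Whether their probes lie in the altered parts of these genes is not given in the sources used here, so they check little. Since samples were whole eyes, lesions or tumors, fewer cells of a type and less RNA per cell cannot be told apart.

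In order to see how the feedback genes behaved when Wnt and Shh signaling were activated together in the developing eye, *RBS* lesions were compared with control eyes. *Dusp4* was 3.40-fold higher in *RBS* lesions, while *Dusp5* was 1.78-fold, *Dusp6* 1.52-fold and *Spry2* 1.73-fold lower. For each of these 4 genes the groups did not overlap. How common this was over all 770 genes is not given here, for this or the other comparisons. *Spry1* was 1.27-fold higher and *Etv4* 1.45-fold lower, with overlapping groups. Hence 6 of the 8 genes passed an adjusted p of 0.05 (limma, Benjamini-Hochberg over all genes), where 51.2% of all 770 genes did. Of these 6, 2 were higher in *RBS* lesions, against 33.0% of all genes, and 4 were lower, against 18.2%. The median difference of the 8 genes was -0.40 on the log2 scale, and that of all genes was 0.17. The same 2 and 4 genes were counted when samples were centred on housekeeping genes. There were 1 higher and 5 lower when samples were centred on the median or quantile normalized, and 2 higher and 5 lower with trimmed total scaling. In trimmed total scaling each sample is scaled by its summed signal without 3 genes, those with the highest mean over all 12 samples. All genes shifted too, from 254 higher and 140 lower to 177 and 177 after median centring, 187 and 179 after quantile normalization and 234 and 153 with trimmed total scaling.

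**Figure D1:**
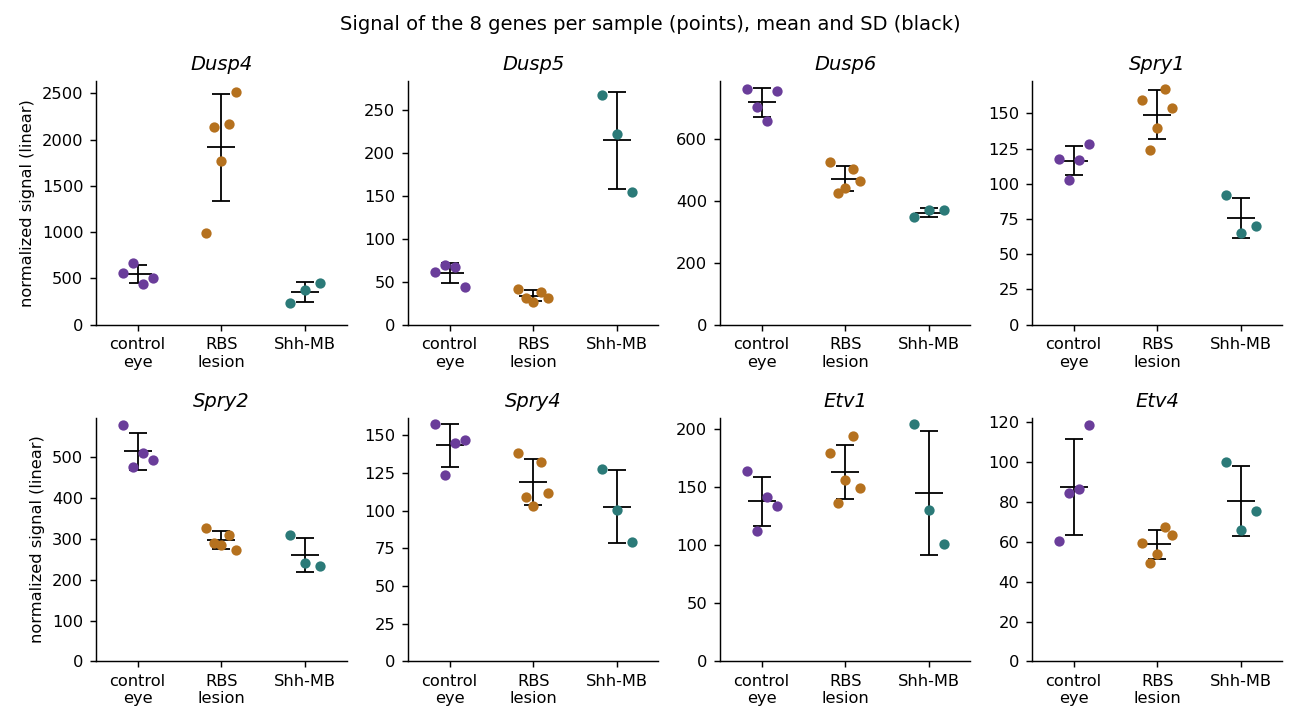
Normalized signal (linear vertical axis from 0, a scale of its own for each gene) of the 8 genes in 4 control eyes, 5 *RBS* lesions and 3 Shh-MBs. Points are samples and black bars are the mean and SD. *Dusp4* stands at 993.4 or more in every *RBS* lesion and at 670.4 or less elsewhere, and *Dusp5* at 155.0 or more in Shh-MBs and at 69.3 or less elsewhere.

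The phosphatases took different directions. *Dusp4*, a nuclear phosphatase of ERK and related kinases, had a signal of 993.4, 2133.3, 1769.5, 2170.9 and 2519.4 in *RBS* 1 to 5. In control eyes 1 to 4 it was 562.5, 670.4, 441.2 and 503.1. Every lesion lay above every control eye, although *RBS* 1 was well under the other 4 lesions. The difference was 1.76 on the log2 scale (SE 0.264, 95% interval 1.17 to 2.36, limma adjusted p = 0.000516), and 95.7% of the 770 genes had a smaller one.

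*Dusp5*, whose product dephosphorylates ERK in the nucleus, was lower in the lesions. Its signal was 41.5, 30.9, 25.9, 38.6 and 30.7 in *RBS* 1 to 5 and 61.5, 69.3, 67.3 and 43.8 in control eyes 1 to 4. The groups did not overlap, with control eye 4 next to the lesions. The difference was -0.83 (log2, SE 0.179, 95% interval -1.24 to -0.43, limma adjusted p = 0.00403). *Dusp6*, the cytoplasmic phosphatase specific for ERK, had a signal of 524.0, 425.9, 440.2, 503.9 and 465.1 in *RBS* 1 to 5. Control eyes 1 to 4 stood at 759.7, 701.8, 658.9 and 753.1, all above the lesions. Here the difference was -0.61 (log2, SE 0.0940, 95% interval -0.82 to -0.39, limma adjusted p = 0.000630).

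The Sproutys, which restrain signaling from receptor tyrosine kinases to Ras and ERK, did not move as a family. *Spry2* signal was 327.1, 289.9, 284.2, 308.6 and 271.2 in *RBS* 1 to 5 and 577.8, 474.7, 509.1 and 492.7 in control eyes 1 to 4. The lowest control eye was thus well above the highest lesion. The difference was -0.79 (log2, SE 0.0935, 95% interval -1.0 to -0.58, limma adjusted p = 0.000142), and *Spry2* kept its call under every alternative that was run, including the methods' test with step-down Bonferroni adjustment.

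*Spry1* signal was 159.7, 124.0, 139.6, 167.6 and 154.1 in *RBS* 1 to 5 and 117.9, 102.7, 117.2 and 128.2 in control eyes 1 to 4. Only *RBS* 2 and control eye 4 made the groups overlap. The difference was 0.35 (log2, SE 0.113, 95% interval 0.09 to 0.60, limma adjusted p = 0.0285). The call was lost without *RBS* 1, 4 or 5 or without control eye 1, 2 or 3, where the limma adjusted p ranged from 0.0534 to 0.0818 and the difference from 0.29 to 0.36. It was also lost with the replicate number as a block, with a difference of 0.33 (limma adjusted p = 0.0543), after median centring (0.17) and after quantile normalization (0.18).

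*Spry4* signal was 138.3, 109.4, 103.5, 132.6 and 112.1 in *RBS* 1 to 5 and 157.8, 124.0, 144.8 and 146.9 in control eyes 1 to 4. Control eye 2 lay among the lesions. The difference of -0.27 (log2, SE 0.119, 95% interval -0.54 to 0.00) did not pass the test (limma adjusted p = 0.0896). It did pass without *RBS* 1 (-0.32, limma adjusted p = 0.0431), after trimmed total scaling (-0.34), after median centring (-0.45) and after quantile normalization (-0.52).

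Neither Etv factor had lesions and control eyes that stood apart. *Etv4* signal was 59.5, 49.5, 54.1, 67.6 and 63.6 in *RBS* 1 to 5 and 60.4, 84.5, 86.4 and 118.8 in control eyes 1 to 4. Control eye 1 lay among the lesions, and the control eyes spread from 60.4 to 118.8. The difference was -0.53 (log2, SE 0.185, 95% interval -0.95 to -0.11, limma adjusted p = 0.0367). This call was lost without *RBS* 1, 2, 3 or 5 or without control eye 2, 3 or 4, where the limma adjusted p ranged from 0.0527 to 0.0818 and the difference from -0.56 to -0.37. With the replicate number as a block the difference was -0.56 (limma adjusted p = 0.0557), and the exact permutation test gave an adjusted p of 0.0633. The methods' test after Benjamini-Hochberg adjustment gave 0.123, and limma with values under 20 set to 20 gave an adjusted p of 0.0503.

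*Etv1* signal was 179.4, 136.1, 156.4, 194.1 and 149.6 in *RBS* 1 to 5 and 163.6, 111.9, 141.6 and 133.4 in control eyes 1 to 4, with wide overlap. The difference of 0.24 (log2, SE 0.143, 95% interval -0.08 to 0.57) did not pass the test (limma adjusted p = 0.188). It was 0.15 without control eye 2, 0.07 after median centring and 0.04 after quantile normalization.

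**Figure D2:**
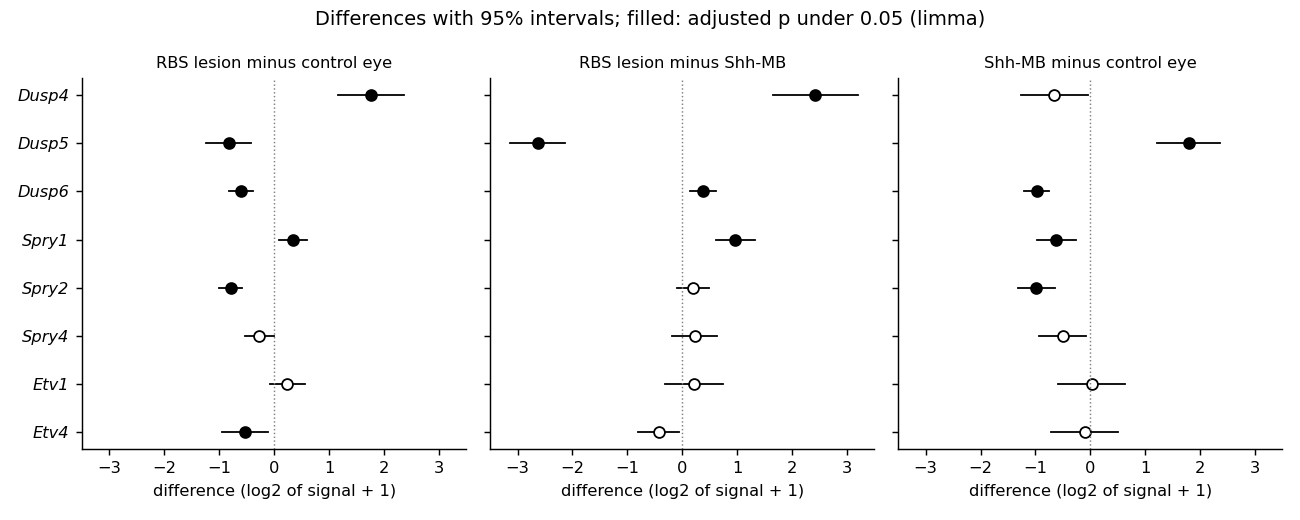
Difference of the group means of log2 (signal + 1) for the 8 genes in the 3 comparisons, with 95% intervals from limma. Filled points passed an adjusted p of 0.05, open points did not. *Dusp4* (1.76) and *Dusp5* (-0.83) lie on opposite sides of 0 for *RBS* lesions minus control eyes, and again for *RBS* lesions minus Shh-MBs (2.42 and -2.63).

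Shh-MBs served as a reference in which Shh signaling alone was activated, in another tissue and at another age. *Dusp4* was 5.37-fold higher and *Dusp5* 6.18-fold lower in *RBS* lesions than in Shh-MBs, and neither pair of groups overlapped. *Spry1* was 1.96-fold higher and *Dusp6* 1.30-fold higher. With these, 4 of the 8 genes passed the test, against 60.8% of all genes, with 3 higher in *RBS* lesions (48.1% of all genes) and 1 lower (12.7%). The median difference was 0.22 on the log2 scale for the 8 genes and 0.53 for all genes. This comparison depended on the scaling, since the median of all genes moved to -0.32 after median centring, -0.10 after quantile normalization and 0.18 after trimmed total scaling. The split of 3 higher and 1 lower became 1 and 6, 1 and 4, and 2 and 2 under these scalings in the same order, and stayed 3 and 1 with housekeeping centring. Over all genes, 370 higher and 98 lower became 181 and 319, 204 and 234, and 271 and 164 under the same 3 scalings.

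*Dusp4* signal was 234.3, 372.4 and 451.0 in Shh-MB 1 to 3, below all 5 lesions. Lesions exceeded tumors by 2.42 (log2, SE 0.336, limma adjusted p = 0.000365), and it stayed positive under each of the 5 scalings. *Dusp5* signal was 267.9, 221.6 and 155.0 in Shh-MB 1 to 3, far above the highest lesion at 41.5. Its difference of -2.63 (log2, SE 0.217, limma adjusted p = 2.44e-05) was among the most negative of the table, with 0.8% of the 770 genes having a smaller value. Under the 4 other scalings it stayed negative. *Spry1* signal was 92.1, 65.2 and 70.2 in the tumors, all under the lesions, with a difference of 0.97 (log2, SE 0.153, limma adjusted p = 0.000716) that shrank to 0.13 after median centring and 0.15 after quantile normalization and was then not called.

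*Dusp6* signal was 346.3, 370.5 and 369.6 in Shh-MB 1 to 3, narrowly under the lowest lesion at 425.9. Its difference of 0.38 (log2, SE 0.104, limma adjusted p = 0.0133) turned to -0.47 after median centring, -0.21 after quantile normalization and -0.01 after trimmed total scaling. With the replicate number as a block it was 0.35 (limma adjusted p = 0.120). *Spry2* signal was 309.3, 239.4 and 232.2 in the tumors, within or below the range of the lesions. Its difference of 0.19 (log2, 95% interval -0.10 to 0.49, limma adjusted p = 0.217) turned to -0.65, -0.34 and -0.19 under those 3 scalings, and without Shh-MB 1 it was 0.32 and passed (limma adjusted p = 0.0385), while without Shh-MB 3 it was 0.12.

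*Spry4* signal was 127.9, 100.8 and 79.5 in Shh-MB 1 to 3, a range that met that of the lesions. The difference of 0.23 (log2, 95% interval -0.18 to 0.64, limma adjusted p = 0.289) turned to -0.62 after median centring, -0.54 after quantile normalization and -0.15 after trimmed total scaling. It was 0.40 without Shh-MB 1 (limma adjusted p = 0.0705) and 0.06 without Shh-MB 3. *Etv1* signal was 204.1, 130.7 and 100.7, so that the 3 tumors spanned more than all 5 lesions. Its difference was 0.22 (log2, 95% interval -0.32 to 0.75, limma adjusted p = 0.444), and it was 0.49 without Shh-MB 1 (limma adjusted p = 0.0466), -0.01 without Shh-MB 3 and -0.63, -0.45 and -0.17 under the 3 scalings. *Etv4* signal was 99.9, 66.1 and 75.3 in the tumors, with Shh-MB 2 under the highest lesion. The difference of -0.43 (log2, SE 0.164, 95% interval -0.81 to -0.05) just missed the threshold (limma adjusted p = 0.0505). It passed without Shh-MB 2 (-0.56), without *RBS* 4 (-0.48), with the replicate number as a block (-0.54, limma adjusted p = 0.0374) and after median centring (-1.28), quantile normalization (-1.37) or trimmed total scaling (-0.81). Without Shh-MB 1 it was -0.27 (limma adjusted p = 0.166), and it did not pass in the exact permutation test (adjusted p = 0.0588) or in the methods' test after Benjamini-Hochberg adjustment (adjusted p = 0.169).

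To complete the 3 groups, Shh-MBs were also set against control eyes, which share samples with both comparisons above. *Dusp5* was 3.48-fold higher in Shh-MBs, while *Dusp6* and *Spry2* were each 1.98-fold lower and *Spry1* 1.54-fold lower. The groups of these 4 genes did not overlap, again without a share over all genes beside it. Thus 4 of the 8 genes passed, against 41.0% of all genes, with 1 higher in Shh-MBs (9.61% of all genes) and 3 lower (31.4%). The median difference was -0.56 on the log2 scale for the 8 genes and -0.22 for all genes, and the median of all genes became 0.44 after median centring, 0.17 after quantile normalization and 0.07 after trimmed total scaling. The split was then 2 higher and 0 lower, 1 and 2, and 1 and 2, and it was 1 and 4 with housekeeping centring. Over all genes, 74 higher and 242 lower became 311 and 139, 221 and 147, and 160 and 177 under the same 3 scalings.

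*Dusp5* differed by 1.80 (log2, SE 0.241, 95% interval 1.22 to 2.37, limma adjusted p = 0.00110). *Dusp6* differed by -0.98 (log2, SE 0.0955, 95% interval -1.21 to -0.76, limma adjusted p = 0.000247) and *Spry2* by -0.99 (log2, SE 0.139, 95% interval -1.32 to -0.65, limma adjusted p = 0.00139). Both shrank to -0.32 after median centring and were then not called. The difference of *Spry1* was -0.62 (log2, SE 0.150, limma adjusted p = 0.0156) and turned to 0.04 after median centring and 0.03 after quantile normalization. Its call was lost without Shh-MB 2 (-0.53, limma adjusted p = 0.0612), without Shh-MB 3 (-0.58, limma adjusted p = 0.0541) with the replicate number as a block (-0.58, limma adjusted p = 0.0570) and after trimmed total scaling (-0.32, limma adjusted p = 0.120). In the methods' test its p-value after Benjamini-Hochberg adjustment was 0.0932, also not a call.

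*Dusp4* did not pass, with a difference of -0.66 (log2, SE 0.255, 95% interval -1.27 to -0.05, limma adjusted p = 0.0819) that was 0.01 after median centring. It was -0.86 without Shh-MB 3 and then passed (limma adjusted p = 0.0466), and it was -0.39 without Shh-MB 1 (limma adjusted p = 0.177). With trend and robust limma the adjusted p was 0.0388. *Spry4* had a difference of -0.50 (log2, 95% interval -0.93 to -0.07, limma adjusted p = 0.0663), which turned to 0.17 after median centring and 0.02 after quantile normalization and was -0.19 after trimmed total scaling. It passed without Shh-MB 1 (-0.67, limma adjusted p = 0.0175) and with housekeeping centring (-0.53, limma adjusted p = 0.0392), and without Shh-MB 3 it was -0.33 (limma adjusted p = 0.171). *Etv1* gave 0.03 (log2, 95% interval -0.59 to 0.64, limma adjusted p = 0.940), -0.01 with housekeeping centring, -0.25 without Shh-MB 1, 0.26 without Shh-MB 3 and 0.69 after median centring, where it passed (limma adjusted p = 0.0232). *Etv4* gave -0.10 (log2, 95% interval -0.71 to 0.50, limma adjusted p = 0.804), and 0.57 after median centring, 0.62 after quantile normalization and 0.21 after trimmed total scaling. These intervals leave room for changes of either sign in both Etv genes.

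**Figure D3:**
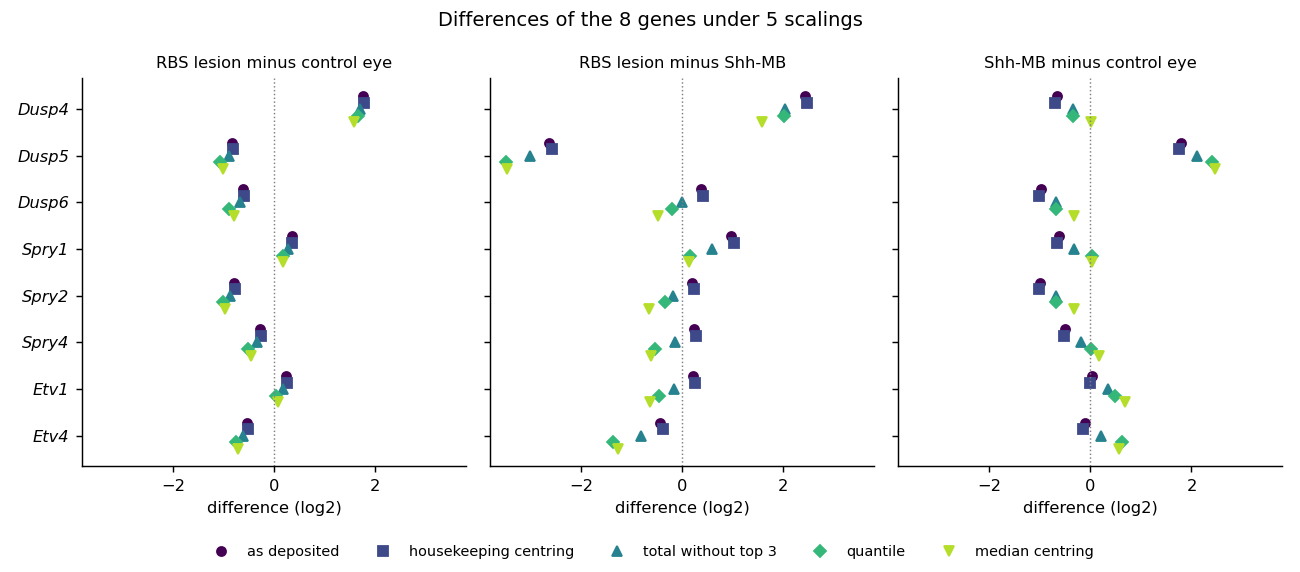
Difference of the group means of the log2 values for the 8 genes under 5 scalings (symbols), in the 3 comparisons. *Dusp4* and *Dusp5* keep their side of 0 in both comparisons with *RBS* lesions, while *Dusp6*, *Spry2*, *Spry4* and *Etv1* cross 0 for *RBS* lesions minus Shh-MBs (*Dusp6* from 0.38 to -0.47).

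Placed side by side on the scale of the signal, the 8 genes followed several orders. *Dusp4* was highest in *RBS* lesions (1917 ± 581, SD, n = 5), followed by control eyes (544 ± 97.6, SD, n = 4) and Shh-MBs (353 ± 110, SD, n = 3), with the last pair overlapping. *Dusp5* was highest in Shh-MBs (215 ± 56.7, SD, n = 3), followed by control eyes (60.5 ± 11.6, SD, n = 4) and *RBS* lesions (33.5 ± 6.37, SD, n = 5), with no overlap. *Dusp6* went from control eyes (718 ± 47.3, SD, n = 4) through *RBS* lesions (472 ± 41.5, SD, n = 5) to Shh-MBs (362 ± 13.8, SD, n = 3). The order of *Spry2* was the same, with 514 ± 45.1 (SD, n = 4), 296 ± 21.9 (SD, n = 5) and 260 ± 42.6 (SD, n = 3), but here lesions and tumors overlapped.

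*Spry1* was highest in *RBS* lesions (149 ± 17.3, SD, n = 5), followed by control eyes (116 ± 10.5, SD, n = 4), which overlapped them, and Shh-MBs (75.8 ± 14.3, SD, n = 3). *Spry4* means were 143 ± 14.1 (SD, n = 4) in control eyes, 119 ± 15.3 (SD, n = 5) in lesions and 103 ± 24.3 (SD, n = 3) in tumors, and each neighbour in this order overlapped the next. *Etv1* means were 138 ± 21.4 (SD, n = 4), 163 ± 23.4 (SD, n = 5) and 145 ± 53.2 (SD, n = 3) in the same order of groups, and *Etv4* means were 87.5 ± 24.0 (SD, n = 4), 58.9 ± 7.22 (SD, n = 5) and 80.4 ± 17.5 (SD, n = 3). For both Etv genes all groups overlapped. The ratio of the highest to the lowest of the 12 samples was 10.8 for *Dusp4* and 10.3 for *Dusp5*, and between 1.98 and 2.57 for the other 6 genes.

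**Figure D4:**
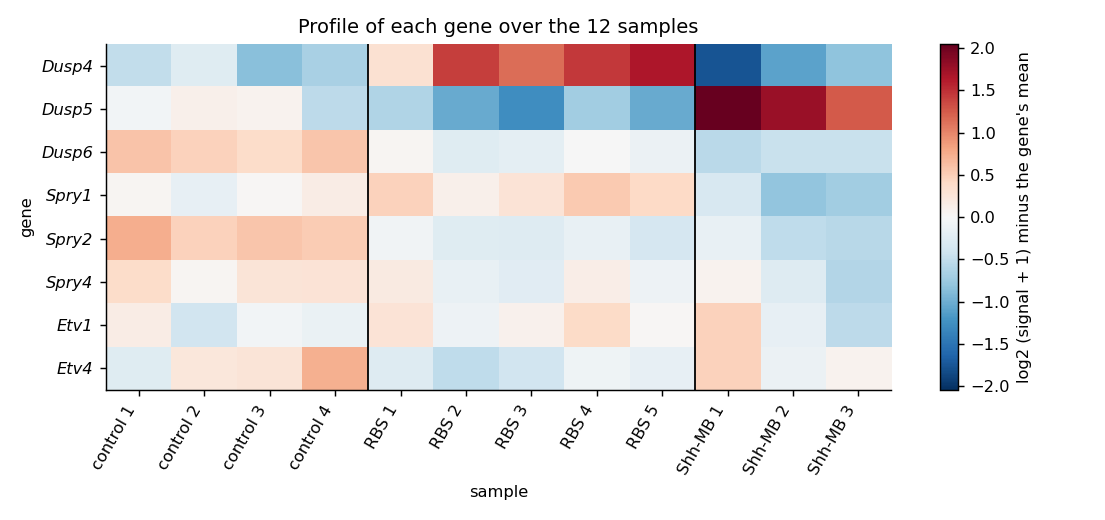
Log2 (signal + 1) of each of the 8 genes minus the mean of that gene over the 12 samples, with samples ordered by group (columns) and genes in rows. Red is above and blue below the gene's own mean. *Dusp4* is highest in the lesions and *Dusp5* in Shh-MBs, and these 2 genes have the widest range.

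The profiles of the 8 genes were compared with those of other genes by the mean absolute difference of log2 values over the 12 samples, each gene centred on its own mean, among 579 other genes with a mean signal of at least 20. Within the 8 genes, *Dusp6* and *Spry2* were closest to each other at 0.128, where the median distance to other genes was 0.543 for *Dusp6* and 0.581 for *Spry2*. Of the other genes, the nearest to *Dusp6* were *Kat2b*, a histone acetyltransferase gene, at 0.122 and the DNA repair gene *Rad50* at 0.143. The nearest to *Spry2* were *Prom1*, which encodes the membrane protein prominin, at 0.120 and *Kat2b* at 0.147. *Dusp4* had *Arnt2*, a basic helix-loop-helix transcription factor gene, at 0.188 and the activin receptor gene *Acvr2a* at 0.346, with a median of 0.911. *Dusp5* had *Mycn*, a proliferation-promoting transcription factor gene, at 0.245 and the Wnt antagonist gene *Sfrp1* at 0.321, with a median of 1.15.

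*Spry1* resembled *Rras2*, which encodes a small GTPase of the Ras family (0.0916), and *Sos2*, an activator of Ras (0.0932), with a median of 0.455. *Spry4* had the histone deacetylase gene *Hdac1* (0.0926) and the transcription factor gene *Sp1* (0.122) nearby. For *Etv1* these were *Gusb*, a lysosomal enzyme gene (0.133), and the Notch regulator gene *Dtx1* (0.148), and for *Etv4* the purine salvage gene *Hprt* (0.195) and the Fanconi anemia gene *Fancb* (0.201). Distances are a description over 3 groups and 12 samples and carry no test.

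For the rest of the pathway, lists were drawn up from general knowledge and counted in the fit across all genes. Of 17 genes of the Ras-ERK cascade, 12 rose and 1 fell in *RBS* lesions against control eyes, beside 33.0% and 18.2% of all genes, and the counts were 8 and 1 after median centring and 9 and 1 after quantile normalization. The adaptor gene *Shc3* rose from 66.1 ± 7.42 (SD, n = 4) to 378 ± 61.6 (SD, n = 5), a difference of 2.49 on the log2 scale (SE 0.140, limma adjusted p = 3.16e-06). The Ras activator gene *Sos1* rose by 0.93 on the log2 scale (SE 0.0843, limma adjusted p = 3.29e-05). The adaptor gene *Shc1* fell by 0.58 (log2, SE 0.149, limma adjusted p = 0.00966). The median difference of the cascade was 0.42 on the log2 scale, beside 0.17 over all genes and -0.40 over the 8 feedback and Etv genes. Of the receptor genes, *Fgfr1* differed by 0.84 and *Fgfr3* by 1.86 on the log2 scale and passed, while *Fgfr2* (0.25) and *Fgfr4* (-0.20) did not.

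Among 18 FGF ligand genes, 2 rose and 3 fell in *RBS* lesions against control eyes, beside 33.0% and 18.2% of all genes, but only 3 of the 18 were above the lowest value in all 12 samples. When single samples were left out, between 0 and 2 rises were called. *Fgf15* signal was 968 ± 129 (SD, n = 4) in control eyes and 133 ± 33.0 (SD, n = 5) in lesions, and *Fgf3* signal was 113 ± 13.1 (SD, n = 4) and 3.00 ± 2.17 (SD, n = 5). The third fall was that of *Fgf9*, the only ligand gene called in this comparison that was above the lowest value in all 12 samples, from 276 ± 26.1 (SD, n = 4) to 61.1 ± 12.7 (SD, n = 5). The rises of *Fgf7* (0.99 on the log2 scale) and *Fgf17* (1.03) had overlapping groups and were not called after median centring or quantile normalization. Of 3 further dual-specificity phosphatase genes, *Dusp8* rose by 1.38 and *Dusp2* by 1.58 on the log2 scale, the latter at a mean of 22.8 ± 8.07 (SD, n = 5) in lesions, and *Dusp10* had a difference of 0.34 that did not pass. The groups of *Dusp2* overlapped, and median centring or quantile normalization left *Dusp8* alone past the threshold. Between 1 and 3 of these phosphatase genes were called higher when single samples were left out. Of 3 genes for brakes on Ras, *Nf1* rose by 0.50 and *Rasa4* fell by 1.22 on the log2 scale, and only *Rasa4* was called after median centring or quantile normalization.

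Of 7 ERK-responsive transcription genes, *Fos* rose by 1.22, *Elk1* by 0.95 and *Jun* by 0.35 on the log2 scale in *RBS* lesions against control eyes, while *Ccnd1*, the cyclin D1 gene, fell by 2.91. *Fosl1*, *Myc* and *Ets2* did not pass, with differences of 0.04, 0.18 and 0.33. *Jun* was not called after median centring, quantile normalization or trimmed total scaling, and *Elk1* not after quantile normalization. *Ccnd1* is also in the list of retinal progenitor markers used below.

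**Figure D5:**
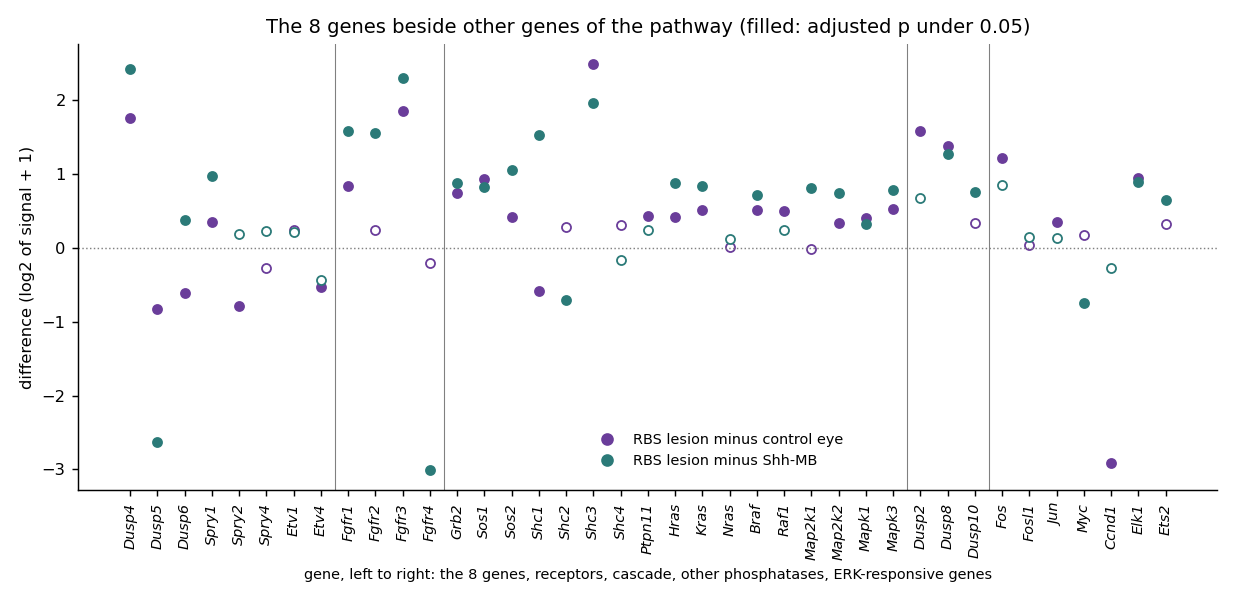
Difference of the group means of log2 (signal + 1) for the 8 genes, 4 FGF receptor genes, 17 cascade genes, 3 other dual-specificity phosphatase genes and 7 ERK-responsive genes, left to right. Purple is *RBS* lesions minus control eyes and green *RBS* lesions minus Shh-MBs, and filled points passed an adjusted p of 0.05 in limma. In purple, 12 of 17 cascade genes are filled and above 0, while *Dusp5*, *Dusp6* and *Spry2* are filled and below 0.

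Against Shh-MBs, 12 cascade genes were higher and 1 lower in *RBS* lesions, beside 48.1% and 12.7% of all genes. This split became 2 and 6 after median centring, 8 and 2 after quantile normalization and 10 and 1 with trimmed total scaling. *Shc3* (1.97 on the log2 scale) and *Shc1* (1.53) were the highest and *Shc2* (-0.70) the lower one. Of the 18 ligand genes, 6 were higher and 3 lower, among them *Fgf18* with group means of 66.0 in lesions and 6.72 in Shh-MBs, *Fgf15* with 133 and 2.33, *Fgf5* with 3.86 and 26.0 and *Fgf1* with 8.98 and 53.4. The ligand split was 4 and 5 after median centring, 3 and 3 after quantile normalization and 4 and 3 with trimmed total scaling. Of the receptor genes, *Fgfr1* (1.58 on the log2 scale), *Fgfr2* (1.56) and *Fgfr3* (2.31) were higher and *Fgfr4* was lower (-3.01), and these 4 calls were made under each of the 5 scalings. *Fgfr4* signal was 137 in Shh-MBs, 17.0 in lesions and 19.1 in control eyes, each a group mean. Of the 7 ERK-responsive genes, *Myc* was lower in *RBS* lesions than in Shh-MBs (-0.75 on the log2 scale), and 3 were lower after median centring. *Nf1* (1.04) and *Rasa4* (2.09) among the brakes and *Dusp8* (1.27) and *Dusp10* (0.76) among the other phosphatase genes were called higher, with 1 higher call in each of these lists after median centring, and 1 higher and 1 lower phosphatase gene after quantile normalization. *Elk1* (0.90) and *Ets2* (0.65) were higher but not called after median centring, quantile normalization or trimmed total scaling.

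In Shh-MBs against control eyes, 1 cascade gene was higher and 6 were lower, beside 9.61% and 31.4% of all genes. The split became 11 and 1 after median centring, 7 and 3 after quantile normalization and 6 and 3 with trimmed total scaling. Leaving out single samples gave 1 to 2 higher and 3 to 7 lower. *Map2k1*, which encodes the ERK kinase Mek1, differed by -0.82 and *Shc1* by -2.12 on the log2 scale, and *Shc2* by 0.98, and all 3 were called. Of the ligand genes, 2 were higher, *Fgf1* (group means of 53.4 in Shh-MBs and 12.6 in control eyes) and *Fgf5* (26.0 and 9.37), and 4 were lower, among them *Fgf15* (2.33 and 968) and *Fgf3* (1.04 and 113). After median centring 4 were higher and 3 lower, and after quantile normalization or trimmed total scaling 2 and 3. The other dual-specificity phosphatase genes did not pass, with differences of 0.90 for *Dusp2*, 0.11 for *Dusp8* and -0.42 for *Dusp10*, but *Dusp8* was called higher after median centring and *Dusp2* and *Dusp8* after quantile normalization. Of the receptor genes, *Fgfr4* was higher in Shh-MBs (2.81 on the log2 scale) and *Fgfr1* (-0.74) and *Fgfr2* (-1.31) were lower, the lower calls being lost after median centring or quantile normalization. *Nf1* (-0.54) and *Rasa4* (-3.32) were lower, *Myc* was higher (0.93) and *Ccnd1* lower (-2.65). After median centring, 1 brake gene was higher and 1 lower, and 4 of the 7 ERK-responsive genes were higher and 1 was lower. Quantile normalization and trimmed total scaling each left 1 brake gene lower. Leaving out single samples gave 1 to 2 brake genes called lower and 0 to 1 ERK-responsive genes called higher.

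Markers of cell types were summed per sample to see what moved alongside the 8 genes. Of the retinal progenitor list, 6 of 10 genes were measured, and their summed signal was 15844 to 21678 in control eyes, 3989 to 5494 in lesions and 2730 to 3119 in Shh-MBs. *Ccnd1* made up most of the sum in control eyes, and 5 of the 6 genes were called lower in lesions than in control eyes. Of these markers *Fgf15* was at the lowest value in 2 of 3 Shh-MBs. Of the neuron list, 5 of 9 genes were measured, with a summed signal of 555 to 722 in control eyes, 2224 to 2967 in lesions and 352 to 551 in Shh-MBs. *Mapt* alone carried the step from control eyes to Shh-MBs (615 and 306, group means), whereas *Grin2b* (0.93 on the log2 scale), *Grin1* (1.90) and *Cacna1e* (2.91) were higher in Shh-MBs than in control eyes. Of the cerebellar granule precursor list, 3 of 7 genes were measured, with a summed signal of 2018 to 2210 in control eyes, 1638 to 1782 in lesions and 6080 to 7507 in Shh-MBs. All 3 were called higher in Shh-MBs than in control eyes, and *Gli1* and *Mycn* lower in lesions than in control eyes. *Ccnd2* went from 743 in control eyes to 937 in lesions (group means) without a call. *Mycn*, the gene whose profile was nearest to *Dusp5*, is in that last list.

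Endothelial markers (3 of 7 measured) summed to 1789 to 2259 in control eyes, 695 to 988 in lesions and 129 to 235 in Shh-MBs. The lower sum in lesions was that of *Kdr* (group means of 1864 and 664), while *Flt1* went from 53.3 to 58.5 and *Angpt2* from 112 to 136 without a call. Mesenchyme markers (8 of 9 measured) summed to 25547 to 57830, 19845 to 36412 and 1477 to 2100 in the same order of groups, and 2 of the 8 were called lower in lesions than in control eyes. In Shh-MBs 6 of the 8 were called lower than in control eyes, but *Pdgfra* was called higher. Its group means were 349 in control eyes, 483 in lesions and 982 in Shh-MBs. Surface epithelium markers (7 of 8 measured) summed to 306 to 651, 492 to 982 and 19.9 to 25.3, and *Calml3* sat at the floor of each Shh-MB. Blood and immune markers (4 of 8 measured) summed to 92.7 to 134, 182 to 245 and 117 to 232. No values were found under the symbols *Rax*, *Pax6* and *Sox2* or those of the 6 lens markers, so the eye identity of the samples rests on their labels. The part of these cell types in the differences of the 8 genes was not tested.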

How the data were processed

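Expression was measured with the nCounter Mouse PanCancer Pathways panel on RNA of fresh frozen tissue, with at least 30 ng per sample. Values were deposited as a normalized, linear signal, which the authors made with nSolver 4.0.70 and nCounter Advanced Analysis 2.0.115, and their log2 step is not in it. The background level taken off and the reference genes are not given in the sources used here. Values without signal above background share a lowest value per sample, so small differences between low genes are lost.

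Here log2 (signal + 1) was analysed for 770 genes and 12 samples in R 4.3.3 by limma 3.58.1 for each pair of groups on its own. Tests were two-sided with eBayes moderation, and Benjamini-Hochberg adjusted p-values, taken over the whole panel, were held against 0.05. Fold changes are on this scale. The step between neighbouring low values gave the counts above background per sample. Each sample came from its own animal, whose sex the labels do not give. The replicate numbers are shared between groups, and the main tests did not pair samples by them. The 8 genes, the lists and the alternatives were chosen with earlier results of these data known. All 8 were named in every comparison. Also named were 2 genes of the most similar profile for each, some genes of the receptor, brake, other phosphatase and ERK-responsive lists, the 2 largest called rises and falls of the ligand and cascade lists, *Ctnnb1*, *Smo* and markers. *Fgf9* was added after its values were seen. The methods' test used the p-value of the *t* distribution, without their 100 permutations, and is an alternative only. In simulated data with 200 of 770 genes changed by 1 on the log2 scale, limma called 80.0% of them for *RBS* lesions against control eyes, 70.5% against Shh-MBs and 68.0% for Shh-MBs against control eyes. Alternatives were a pseudocount of 5, a filter or floor at a signal of 20, median centring, centring on the mean of 13 housekeeping genes, trimmed total scaling, quantile normalization, trend and robust limma, a fit of all 12 samples, the exact permutation test, the replicate number as a block and leaving out each sample. Sequences came from RefSeq tables. Python 3.11.15 with matplotlib 3.10.9 drew the figures.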

Additional observations from a re-analysis of the deposited data

How the results depend on the processing

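Over all alternatives, 409 of 504 results for single genes kept their direction and their side of the threshold, 46 lost the call with the sign kept, 22 gained it with the sign kept and 27 changed sign, with or without a change of call. For *RBS* lesions against control eyes, 6 of the 8 genes were called, and 1 with the methods' test and step-down Bonferroni adjustment (72 of all genes against 394). The median difference went from -0.40 to -0.63 after quantile normalization, and 4 to 5 genes and medians of -0.45 to -0.31 were found when single samples were left out. In this comparison *Dusp4*, *Dusp5* and *Dusp6* lost their call with the step-down adjustment and under no other alternative.

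Against Shh-MBs, 4 genes were called, 7 after median centring and 0 with the step-down adjustment (80 of all genes against 468), where the methods' test gave 4 at an unadjusted p of 0.05 and 4 after Benjamini-Hochberg adjustment. The median of 0.22 turned to -0.62 after median centring, -0.39 after quantile normalization and -0.16 after trimmed total scaling. Leaving out single samples gave 4 to 6 genes and medians of 0.09 to 0.37. In that comparison the sign changed for *Dusp6* (-0.47, -0.21, -0.01), *Spry2* (-0.65, -0.34, -0.19), *Spry4* (-0.62, -0.54, -0.15) and *Etv1* (-0.63, -0.45, -0.17) under the same 3 scalings, and *Etv1* went from -0.01 to 0.49 when single samples were left out.

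For Shh-MBs against control eyes, 4 genes were called, 2 after median centring, 1 with the step-down adjustment (36 of all genes against 316) and 0 with the exact permutation test, whose smallest p of 0.0286 becomes 0.0703 after adjustment, so that no gene can pass. That test gave 4 of the 8 genes an unadjusted p under 0.05, and 313 of all 770. The median of -0.56 turned to 0.11 after median centring and 0.03 after quantile normalization and was -0.25 after trimmed total scaling. Leaving out single samples gave 3 to 5 genes and medians of -0.56 to -0.45. The sign changed for *Dusp4* (0.01) after median centring, for *Spry1* (0.04, 0.03) and *Spry4* (0.17, 0.02) after median centring and quantile normalization, for *Etv4* under these and trimmed total scaling (0.57, 0.62, 0.21), and for *Etv1* with housekeeping centring (-0.01), which gained a call after median centring (0.69). When single samples were left out, *Etv1* ranged from -0.25 to 0.26 and *Etv4* from -0.27 to 0.06. The cause of these changes was not tested.

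With the replicate number as a block (replicate block), 4 genes were called for *RBS* lesions against control eyes, 4 for *RBS* lesions against Shh-MBs and 3 for Shh-MBs against control eyes, where *Etv4* changed sign to 0.06. The deviations of same-numbered samples correlated between -0.32 and 0.39, between 0.02 and 0.12 and between -0.11 and 0.03. In the same order, 2 of 4, 2 of 3 and 0 of 3 samples correlated best with their own number. With only 3 or 4 shared numbers, this cannot tell whether same-numbered samples belong together. Among the values of the 8 genes, the fewest counts above background were 25, for *Dusp5* in *RBS* 1.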

Other observations

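In the *RBS* lesions, the samples *RBS* 1 and *RBS* 4 had the highest signal of the 5 lesions for 6 of the 8 genes, all but *Dusp4* and *Etv4*. The same was true of 135 of 587 genes with a mean signal of at least 20 (23.0%). These 2 lesions also had the fewest counts above background, 335392 in *RBS* 1 and 447999 in *RBS* 4. The pattern was chosen after its values were seen and carries no test.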
